A study of Mus musculus with 5 samples.

Results

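The genes described here make cholesterol and fatty acids, or control how much of them a cell makes. They were taken by gene symbol from a table of raw RNA sequencing counts of mouse lenses, and all 31 symbols were among its 12370 symbols. By role they were 19 enzymes of sterol synthesis, 7 enzymes of fatty acid synthesis and activation, and 5 genes for the control of the pathway and for sterol transfer. All 31 passed the filter on low counts, which kept 12035 symbols.

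Lenses of embryonic day 14 were compared between 2 N-myc knockout libraries and 3 control libraries. The knockout embryos carried Mlr10-Cre in the heterozygous state, a transgene that drives the recombinase Cre in the lens, together with N-myc alleles flanked by loxP sites on both chromosomes. Control embryos lacked Cre and had the same loxP-flanked N-myc alleles, in the labels either alone or with loxP-flanked c-myc alleles. The sources used here do not say which control library had which of these genotypes. Since Cre was present in knockout libraries only, its own effects and the loss of N-myc cannot be told apart. The series describes the libraries as biological replicates, and for each, lenses of single animals were lysed and then pooled; the number of animals is not stated.

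Cholesterol is built from acetyl-CoA through mevalonate, which is turned into isoprenoid units, then squalene, then lanosterol and finally cholesterol. Fatty acids are built from the same acetyl-CoA by acetyl-CoA carboxylase and fatty acid synthase, and are then elongated and desaturated. The SREBP transcription factors drive both branches: SREBP-2 acts mainly on sterol genes and SREBP-1 more on fatty acid genes. They are held in the endoplasmic reticulum by SCAP and INSIG proteins while sterol is plentiful, and are released when it runs low. Lens fibre cells have plasma membranes unusually rich in cholesterol, and inherited defects of cholesterol synthesis can cause cataract.

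Some enzymes of sterol synthesis were expressed at a lower level in the knockout lenses, together with the fatty acid elongase Elovl6 and the sterol sensor partner Insig1, while Srebf1, the gene for SREBP-1, was higher. In the knockout libraries 6 of the 31 genes fell and 1 rose (edgeR quasi-likelihood test, Benjamini-Hochberg adjusted p under 0.05 over all genes tested). The genes that fell were Hmgcs1, Idi1, Cyp51, Hsd17b7, Elovl6 and Insig1, by 1.32-fold to 2.17-fold, and Srebf1 rose 1.42-fold. That is 19.4% of the 31 called lower, against 8.51% of all tested genes, and 3.23% called higher, against 7.98% of all. The median log2 fold change of the 31 genes was -0.24, against 0.00 over all tested genes. In 23 of the 31 (74.2%) the fitted change was below 0, which was true of 49.8% of all tested genes. The 31 genes and the lists below were chosen with earlier results of these data known. Shares set beside those of all genes therefore describe the lists and are no test of an excess.

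**Figure D1:**
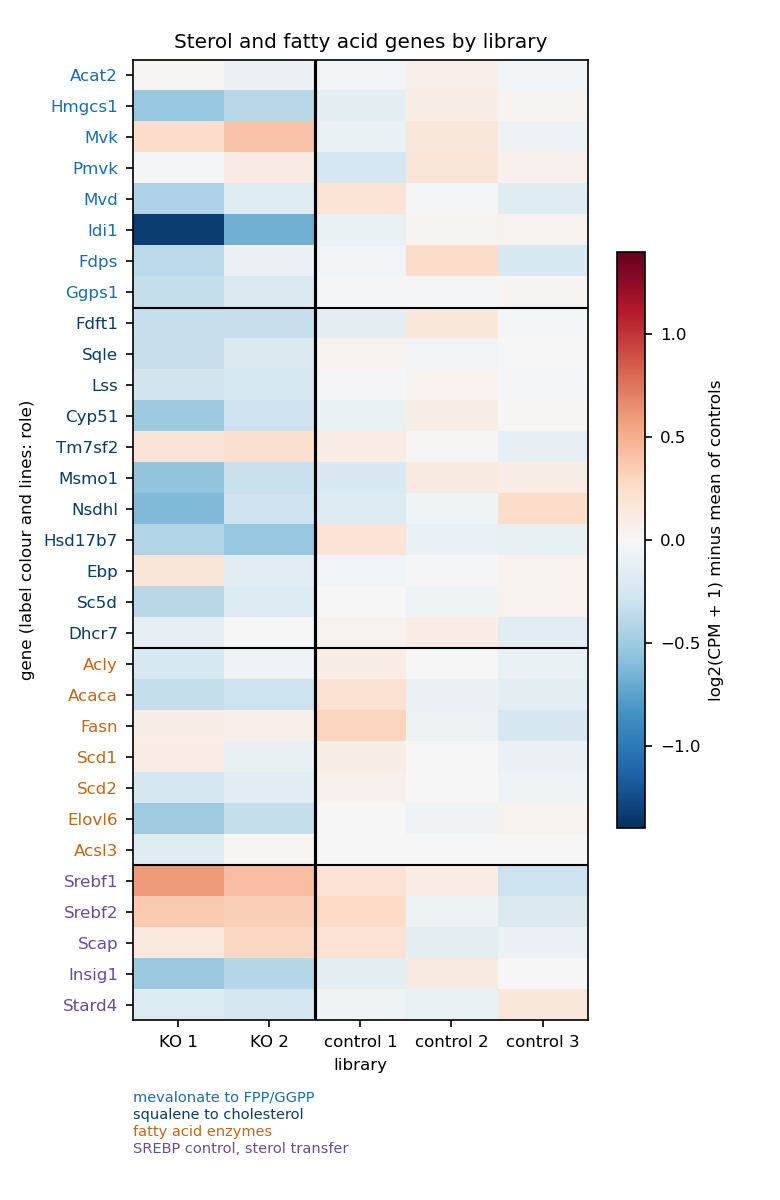
Level of the 31 genes in every library, as log2(CPM + 1), with CPM the counts scaled to library size, minus the mean of the 3 control libraries (colour; blue lower, red higher); rows are genes grouped by role, columns the knockout and then the control libraries. Idi1 in knockout replicate 1 is the darkest blue, and Srebf1 and Srebf2 are red in both knockout columns.

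The calls depended on which libraries were kept, over the whole table as well as in the 31 genes. With control replicate 2 left out, edgeR called 21 of all tested genes higher and 17 lower. When control replicate 3 was dropped, 132 rose and 105 fell. Of the 31 genes 0 were called in either fit, which does not set them apart from the table. The 7 genes named above then had adjusted p from 0.0797 to 0.123 and from 0.0764 to 0.102. Leaving out knockout replicate 1 keeps a lone knockout library. The median log2 fold change of the 31 was then -0.19. At an unadjusted edgeR p under 0.05, 12 of the 31 were lower and 2 higher when control replicate 2 was left out. Lower genes numbered 13 and higher ones 1 when control replicate 3 was. All tested genes were not counted at this cut in these fits, so the counts describe the 31 only. All 7 kept the sign of their change in each of the 14 alternative analyses, and 0 of the 7 passed in every one.

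Depth was similar in all libraries, at 13162384 to 13746416 counts. Mycn, the deleted gene, had 57.3 and 81.9 CPM in knockout lenses against 162, 148 and 140.3 CPM in control lenses, and was lower in both knockout libraries (log2 -1.11, SE 0.15, edgeR adjusted p = 0.0097). The 16 genes fixed as lens markers summed to 90830 and 106100 CPM in the knockout libraries and to between 100800 and 122400 CPM in the controls. All 16 were detected and 5 were called lower. The 14 retina markers in the table summed to 382.3 and 546.3 CPM in the knockouts and 200.1 to 315.4 CPM in the controls, with 11 called higher. The 14 periocular mesenchyme markers summed to 5230 and 2575 CPM against 2373 to 2652 CPM, with 5 called higher. Of 8 fat cell markers, Lpl alone was in the table, at 4.22 and 7.89 CPM against 8.07 to 10.9 CPM. Of 9 macrophage markers tested 1 was called higher and 0 lower. Of 7 pericyte and smooth muscle markers 2 were higher and 0 lower, and of 11 endothelium markers 0 and 1. Both pigment epithelium markers tested, of a list of 8, were called, 1 higher and 1 lower. Over all tested genes 7.98% were called higher and 8.51% lower. Of 9 red cell markers 3 were at 0 in every library. The part of these cells in the changes below was not tested. In bulk lenses, fewer cells of a type and less RNA per cell cannot be told apart.

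Fold changes across the table also followed the base composition of the transcripts. GC content and log2 fold change had a Spearman's rho of 0.682 over the 31 genes and 0.458 over 11804 tested genes. All these points share the same 5 libraries. The 6 genes that fell had 41.9% to 48.2% GC and Srebf1 had 58.4%. A second fit, called corrected below, took out the dependence of every library on the length and GC content of transcripts. In it rho over the 31 genes was 0.137, a drop that follows from taking out the trend and is no check of the fit. Any knockout effect that follows GC content could be taken out with it. The median log2 fold change in that fit was -0.25, with 22 of the 31 below 0 (49.6% of all tested genes). Of the 31, 7 fell and 0 rose, where 6.15% of all genes were called lower and 3.79% higher. The 7 were Fdft1, Sqle, Lss, Acaca, Fasn, Elovl6 and Insig1, so only Elovl6 and Insig1 were called lower in both fits. At an unadjusted edgeR p under 0.05, 15 of the 31 were lower and 0 higher in the corrected fit. All tested genes were not counted at this cut in that fit. The part of base composition in the single changes was not tested.

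**Figure D2:**
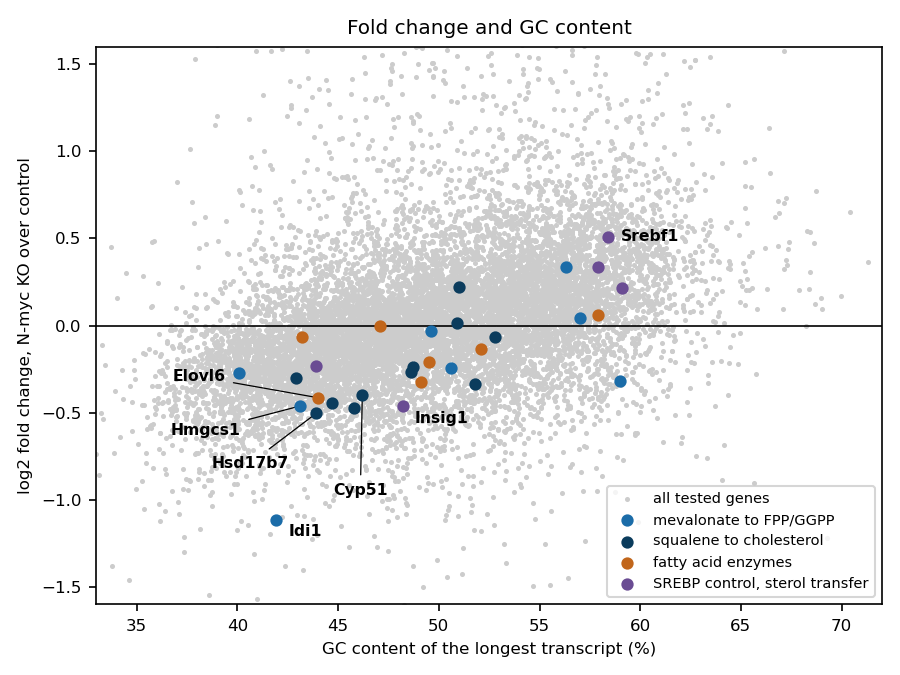
Log2 fold change of knockout over control (y) against GC content of the longest transcript in percent (x), for all tested genes within the axes (grey) and the 31 genes coloured by role. Genes that passed the test are named: those that fell lie between 41.9% and 48.2% GC and Srebf1 at 58.4%.

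Among the 5 genes for control and sterol transfer, Insig1 fell (20%, against 8.51% of all tested genes), Srebf1 rose (20%, against 7.98%) and 3 did not pass. Their median log2 fold change was 0.21, and -0.11 in the corrected fit. Insig1 encodes a membrane protein that retains the SCAP and SREBP complex in the endoplasmic reticulum, and is itself a classic target of SREBP. The gene lies at chr5:28071363-28078662, plus strand (GRCm38, as for the positions below). It was at 76.1 and 82.9 CPM in knockout lenses against 100.2, 119 and 109.8 CPM in control lenses. No knockout value reached the lowest control value. Its mean was 79.5 ± 4.74 CPM (SD, n = 2) against 109.7 ± 9.41 CPM (SD, n = 3), 1.38-fold lower (log2 -0.46, SE 0.097, edgeR adjusted p = 0.0234). Of 14 alternatives 10 called Insig1 (range of adjusted p 0.00128 to 0.141), the corrected fit among them (log2 -0.36, adjusted p = 0.0289).

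Srebf1 (chr11:60199089-60222581, minus strand), which encodes SREBP-1, was at 105.3 and 93.8 CPM in knockout lenses against 79.5, 74.5 and 55.9 CPM in control lenses. The groups did not overlap, but the controls differed among themselves by more than the knockouts did. The rise was 1.42-fold (log2 0.51, SE 0.14, edgeR adjusted p = 0.0473). In the corrected fit its log2 fold change was 0.12 and did not pass (adjusted p = 0.483). It was called in 7 of 14 alternatives (0.0119 to 0.928).

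Srebf2, which encodes SREBP-2, was at 232.7 and 226.9 CPM in knockout lenses against 218.3, 171.6 and 155.9 CPM in control lenses. It did not pass (log2 0.34, SE 0.13, edgeR adjusted p = 0.115), and the value was -0.06 in the corrected fit. Scap, the escort of the SREBP proteins, had a log2 fold change of 0.21 and of -0.19 in the corrected fit (edgeR adjusted p = 0.242 and 0.304). Srebf1, Srebf2 and Scap are GC-rich (57.9% to 59.1%). Stard4, which moves sterol between membranes, had 36.6 and 35.2 CPM against 40.1, 39.2 and 47 CPM (log2 -0.23, edgeR adjusted p = 0.171). The Srebf1 count sums all its transcripts, so its isoforms cannot be told apart.

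**Figure D3:**
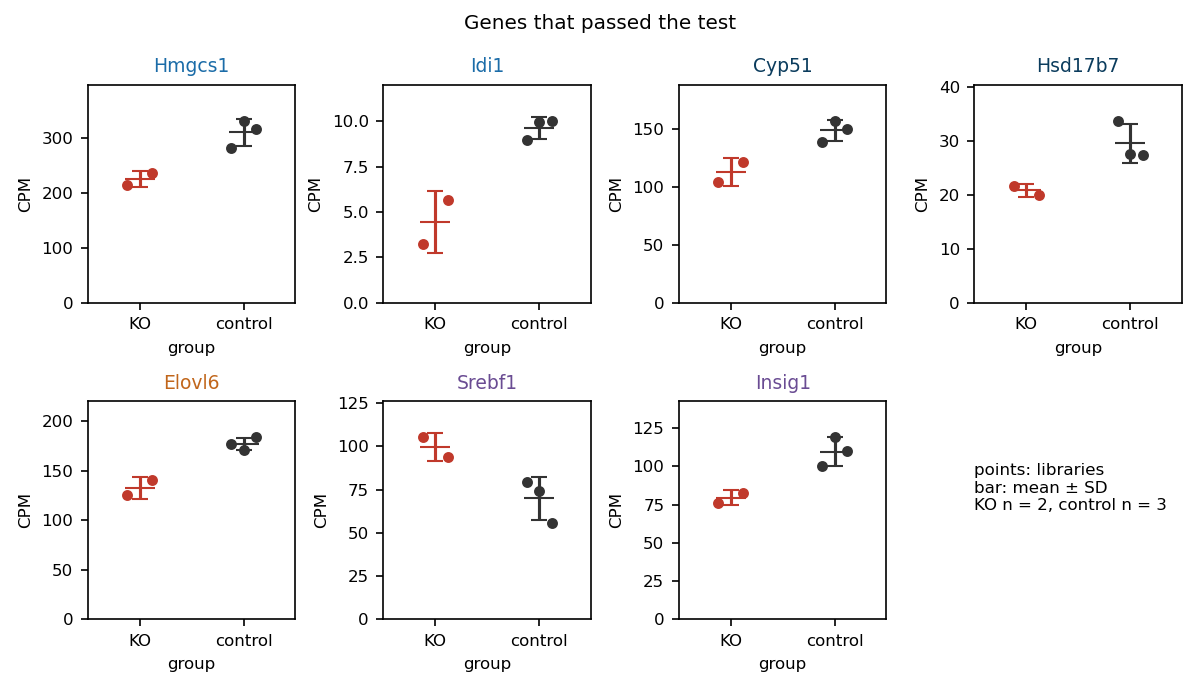
CPM (y, from 0) of the 7 genes that passed the test, with a point for each library and mean ± SD, knockout (n = 2, left) and control (n = 3, right). In each panel the groups do not overlap, and Srebf1 is the gene that was higher in the knockout. Over all tested genes, 27% had both knockout libraries below every control and 25.5% had both above.

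The first 8 sterol enzymes lead from acetyl-CoA to farnesyl and geranylgeranyl diphosphate. Of these 2 fell (25%, against 8.51% of all tested genes), 0 rose (against 7.98%) and 6 did not pass. Their median log2 fold change was -0.26. The median was -0.14 without knockout replicate 1. It was -0.11 in the corrected fit, with 4 of the 8 below 0 and 0 called. At an unadjusted edgeR p under 0.05, 3 were lower and 1 higher. DESeq2 and limma-voom each called 2 lower and 0 higher. For scale, 2122 of all 12035 tested genes were lower and 2189 higher at an unadjusted edgeR p under 0.05. DESeq2 called 1211 of them lower and 1153 higher, and limma-voom 910 and 819. These totals apply to the same counts of every list below. Hmgcs1 (chr13:119690379-119708260, plus strand), the cytosolic synthase that makes HMG-CoA, was at 215 and 236 CPM in knockout lenses against 283, 332 and 318 CPM in control lenses, so the groups were apart. It averaged 226 ± 14.8 CPM (SD, n = 2) against 311 ± 25.2 CPM (SD, n = 3), 1.38-fold lower (log2 -0.46, SE 0.099, edgeR adjusted p = 0.0249). In the corrected fit it had a log2 fold change of -0.25 (adjusted p = 0.0862), the range over 14 alternatives being 0.000197 to 0.182.

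Idi1 (chr13:8885501-8892451, plus strand), the isomerase that makes dimethylallyl diphosphate, showed the largest fold change of the 31. Its raw counts were 45 and 79 in knockout lenses against 114, 131 and 132 in control lenses, or 3.22 and 5.67 CPM against 8.94, 9.94 and 10 CPM. Every knockout value lay below every control value, and the knockout libraries differed from each other by more than the controls did. The fall was 2.17-fold (log2 -1.11, SE 0.25, edgeR adjusted p = 0.0294). Per kilobase it was at 1.47 CPM in knockout lenses, the lowest level of the 31 genes there, and at 3.18 CPM in control lenses. Reads can be shared with its close relative Idi2. The log2 fold change of Idi1 was -0.76 without knockout replicate 1 (adjusted p = 0.115) and -0.84 in the corrected fit (0.0554).

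The other 6 genes of this stretch did not pass. Mvk, mevalonate kinase, was at 19.7 and 21.9 CPM against 15.3, 18.4 and 15.6 CPM, with a log2 fold change of 0.34 (edgeR adjusted p = 0.124). It was the sterol enzyme with the highest fitted value. The next kinase Pmvk and the decarboxylase Mvd had log2 fold changes of 0.04 and -0.32 (edgeR adjusted p = 0.872 and 0.186). Ggps1, which makes geranylgeranyl diphosphate, was lower in both knockout libraries than in any control (56.9 and 62.8 CPM against 71.6, 70.7 and 74.4 CPM; log2 -0.27, edgeR adjusted p = 0.0595). Its value was 0.02 in the corrected fit, and at 40.1% its transcript was the poorest in GC of the 31. Fdps, the farnesyl diphosphate synthase, had a log2 fold change of -0.24, and Acat2, the thiolase of the first step, one of -0.03 (edgeR adjusted p = 0.359 and 0.862). Counts of Fdps and Acat2 are uncertain, since reads can be shared with near-identical copies.

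From squalene to cholesterol, 9 of 11 genes (81.8%) had a log2 fold change below 0, against 49.8% of all tested genes. Of the 11, 2 fell (18.2%, against 8.51% of all) and 0 rose (against 7.98%). At an unadjusted p under 0.05, 8 were lower and 0 higher (2122 and 2189 of all 12035 tested genes). DESeq2 called 5 lower and limma-voom 2, and both called 0 higher. In 8 of the 11 (72.7%) both knockout libraries were below each control, which held for 27% of all tested genes. The median log2 fold change was -0.30, and -0.26 in the corrected fit.

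Cyp51 (chr5:4081145-4104746, minus strand), the demethylase that acts on lanosterol, was at 104 and 121 CPM in knockout lenses against 139, 157 and 150.1 CPM in control lenses. Means were 113 ± 12.1 CPM (SD, n = 2) against 149 ± 9.08 CPM (SD, n = 3). The groups were apart and the fall was 1.32-fold (log2 -0.40, SE 0.097, edgeR adjusted p = 0.0341). Its adjusted p in the corrected fit was 0.0576 (log2 -0.31). Hsd17b7 (chr1:169949535-169969241, minus strand), the sterol 3-keto reductase, was at 21.7 and 20 CPM against 33.8, 27.6 and 27.4 CPM. Here too all knockout values were the lower ones (1.42-fold, log2 -0.51, SE 0.13, edgeR adjusted p = 0.0402), with a log2 fold change of -0.37 and an adjusted p of 0.114 in the corrected fit.

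Fdft1, Sqle and Lss carry out the steps into the sterol ring: squalene synthase, squalene epoxidase and lanosterol synthase. Fdft1 was at 59.1 CPM in both knockout libraries against 67.8, 82.8 and 73.5 CPM in the controls. Sqle was at 83.7 and 91.7 CPM against 109, 102 and 105 CPM. Lss was at 67.1 and 69.4 CPM against 78.9, 83 and 79.2 CPM. None of these ranges overlapped between the groups. The log2 fold changes were -0.34, -0.26 and -0.24, just outside the threshold (edgeR adjusted p = 0.0546, 0.0595 and 0.0693). In the corrected fit they were -0.44, -0.29 and -0.36, and all passed (0.0333, 0.0439 and 0.0363).

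The later enzymes were mixed. Msmo1, the C4-methyl sterol oxidase, was at 34.1 and 40.6 CPM against 43.6, 55.1 and 54 CPM (log2 -0.45, edgeR adjusted p = 0.0542). Nsdhl, its partner dehydrogenase, was at 21.3 and 26.9 CPM against 28.9, 31.6 and 39.6 CPM (log2 -0.47, edgeR adjusted p = 0.0801). Sc5d, the desaturase near the end of the pathway, had a log2 fold change of -0.30 (edgeR adjusted p = 0.113). The isomerase Ebp and the reductases Dhcr7 and Tm7sf2 lay near or above 0, with log2 fold changes of 0.02, -0.07 and 0.22 (edgeR adjusted p = 0.964, 0.694 and 0.343).

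Taking all 19 sterol enzymes, 4 fell (21.1%, against 8.51% of all tested genes), 0 rose and 15 did not pass, and the median log2 fold change was -0.27. The median was -0.25 in the corrected fit. There Fdft1, Sqle and Lss fell, where 6.15% of all tested genes were called lower, and none of the 4 passed. At an unadjusted edgeR p under 0.05, 11 were lower and 1 higher (2122 and 2189 of all 12035 tested genes). DESeq2 called 7 lower and 0 higher, and limma-voom 4 and 0. The median level of the 19 genes relative to the control mean, on the log2(CPM + 1) scale, was -0.34 and -0.20 in knockout replicates 1 and 2 and -0.04, 0.05 and -0.01 in the controls. Both knockout libraries were thus below every control library for this median, and knockout replicate 1 was the lower of the pair. Each control library is part of the mean it was compared with. The same order held for the 7 fatty acid enzymes (-0.21 and -0.11 against 0.08, -0.003 and -0.08). It did not hold for the 5 genes of control and sterol transfer (0.14 and 0.29 against 0.20, -0.07 and -0.08).

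Promoter sequence is shown for the 5 genes of sterol synthesis and its control that passed the test as lower, so that the motifs of the pathway can be seen in them. Of these 5, Insig1 alone also passed in the corrected fit. Each stretch holds the 250 bases before the RefSeq transcription start (GRCm38.p6), 5′ to 3′ on the gene's strand. Capitals mark matches, on either strand, to 4 motifs: the sterol regulatory element TCACNCCAC bound by SREBP factors, the E-box CACGTG bound by MYC and other factors, the box CCAAT bound by NF-Y, and the box GGGCGG bound by Sp1. No matches overlap.
Hmgcs1, chr13:119690101-119690350, plus strand: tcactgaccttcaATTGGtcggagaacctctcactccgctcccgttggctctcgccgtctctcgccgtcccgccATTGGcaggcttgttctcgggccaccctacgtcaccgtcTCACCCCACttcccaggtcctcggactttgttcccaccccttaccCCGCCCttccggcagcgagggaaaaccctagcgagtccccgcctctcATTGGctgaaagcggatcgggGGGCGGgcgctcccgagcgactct
Idi1, chr13:8885356-8885605, plus strand: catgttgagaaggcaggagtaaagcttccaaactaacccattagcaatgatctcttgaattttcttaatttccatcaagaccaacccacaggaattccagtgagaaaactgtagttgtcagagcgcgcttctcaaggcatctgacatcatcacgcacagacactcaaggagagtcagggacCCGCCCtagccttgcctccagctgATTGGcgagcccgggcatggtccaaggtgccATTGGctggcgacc
Cyp51, chr5:4104698-4104947, minus strand: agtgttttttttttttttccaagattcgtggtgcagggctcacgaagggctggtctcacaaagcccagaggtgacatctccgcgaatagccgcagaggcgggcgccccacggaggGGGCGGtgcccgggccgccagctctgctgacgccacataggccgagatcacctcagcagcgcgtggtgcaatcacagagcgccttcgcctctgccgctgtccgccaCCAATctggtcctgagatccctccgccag
Hsd17b7, chr1:169969206-169969455, minus strand: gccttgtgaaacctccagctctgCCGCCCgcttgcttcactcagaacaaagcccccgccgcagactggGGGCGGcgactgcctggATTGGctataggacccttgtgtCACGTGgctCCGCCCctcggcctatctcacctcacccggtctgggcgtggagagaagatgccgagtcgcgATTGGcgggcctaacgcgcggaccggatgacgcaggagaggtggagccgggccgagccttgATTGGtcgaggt
Insig1, chr5:28071162-28071411, plus strand: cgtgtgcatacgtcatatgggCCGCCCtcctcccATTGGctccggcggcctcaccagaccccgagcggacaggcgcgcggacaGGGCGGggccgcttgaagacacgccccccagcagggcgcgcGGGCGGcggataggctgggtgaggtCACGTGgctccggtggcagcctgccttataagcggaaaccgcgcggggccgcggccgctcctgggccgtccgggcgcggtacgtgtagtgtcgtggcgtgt

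Such a sequence was found for 25 of the 31 genes, and not for Fdft1, Fdps, Scd1, Scd2, Sqle and Stard4. The sterol regulatory element letters occurred in 1 of these 25 genes (4%), Hmgcs1, starting 137 bases before its start, and in 1.24% of 9529 genes of the count table. E-box letters were found in 20% of the 25 (Dhcr7, Hsd17b7, Insig1, Sc5d and Scap) and 10.1% of all. Of the genes shown, Hsd17b7 and Insig1 hold one, 143 and 101 bases before the start. The box CCAAT was in 80% of the 25 and 40.9% of all, and GGGCGG in 80% and 65.3%. By branch, CCAAT was present in 15 of 16 sterol enzyme genes (93.8%) and 2 of 5 fatty acid genes (40%). A gene with several starts was counted if any of them had the letters. These are matches of letters only, with no measure of binding.

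The fatty acid branch was led in level by Scd2, a stearoyl-CoA desaturase. Per kilobase of its longest transcript, Scd2 stood at 455 CPM in knockout and 525 CPM in control lenses, the highest of the 31 genes. Hmgcs1 (65.2 and 89.8 CPM per kilobase) and Fasn (60.1 and 57.6 CPM per kilobase) followed. Scd1, the other desaturase counted here, stood at 3.34 and 3.35 CPM per kilobase. The desaturase genes are similar in sequence, so reads of single members are uncertain.

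Of 7 fatty acid genes, Elovl6 fell (14.3%, against 8.51% of all tested genes), 0 rose (against 7.98%) and 6 did not pass. At an unadjusted edgeR p under 0.05, 2 were lower and 0 higher (2122 and 2189 of all 12035 tested genes). DESeq2 called 2 lower and 0 higher, and limma-voom 1 and 0. The median log2 fold change was -0.14. Elovl6 (chr3:129532355-129638495, plus strand), which elongates palmitate to stearate, was at 125 and 140.6 CPM in knockout lenses against 177, 171 and 184 CPM in control lenses. All knockout values were below all control values. It averaged 133 ± 11 CPM (SD, n = 2) against 177 ± 6.32 CPM (SD, n = 3), 1.33-fold lower (log2 -0.41, SE 0.086, edgeR adjusted p = 0.0227). Elovl6 fell in the corrected fit as well (log2 -0.33, adjusted p = 0.0282), and its adjusted p ran from 0.000333 to 0.135 over 14 alternatives.

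Acaca, acetyl-CoA carboxylase, was at 84.7 and 86.4 CPM in knockout lenses against 124, 101 and 97.4 CPM in control lenses. The ranges were apart, and the change did not pass (log2 -0.32, SE 0.11, edgeR adjusted p = 0.0806). It passed in the corrected fit (log2 -0.50, adjusted p = 0.0165). Scd2 was at 2407 and 2553 CPM against 2973, 2860.0 and 2752 CPM, again without overlap (log2 -0.21, SE 0.091, edgeR adjusted p = 0.145).

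Fasn, fatty acid synthase, was at 606 and 602 CPM in knockout lenses against 711, 542 and 484 CPM in control lenses. The knockout values lay inside the control range, and the log2 fold change was 0.06 (SE 0.15, edgeR adjusted p = 0.805). Its transcript is long and 57.9% GC. The corrected fit turned the sign, with a log2 fold change of -0.43 that passed (adjusted p = 0.0476). Acly, which supplies cytosolic acetyl-CoA from citrate, had a log2 fold change of -0.14 (edgeR adjusted p = 0.321). Acsl3, which activates fatty acids, and Scd1 were near 0, at -0.07 and 0.00 (edgeR adjusted p = 0.611 and 0.997). In the corrected fit 3 of the 7 fatty acid genes fell, where 6.15% of all tested genes were called lower, and the branch median was -0.31.

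**Figure D4:**
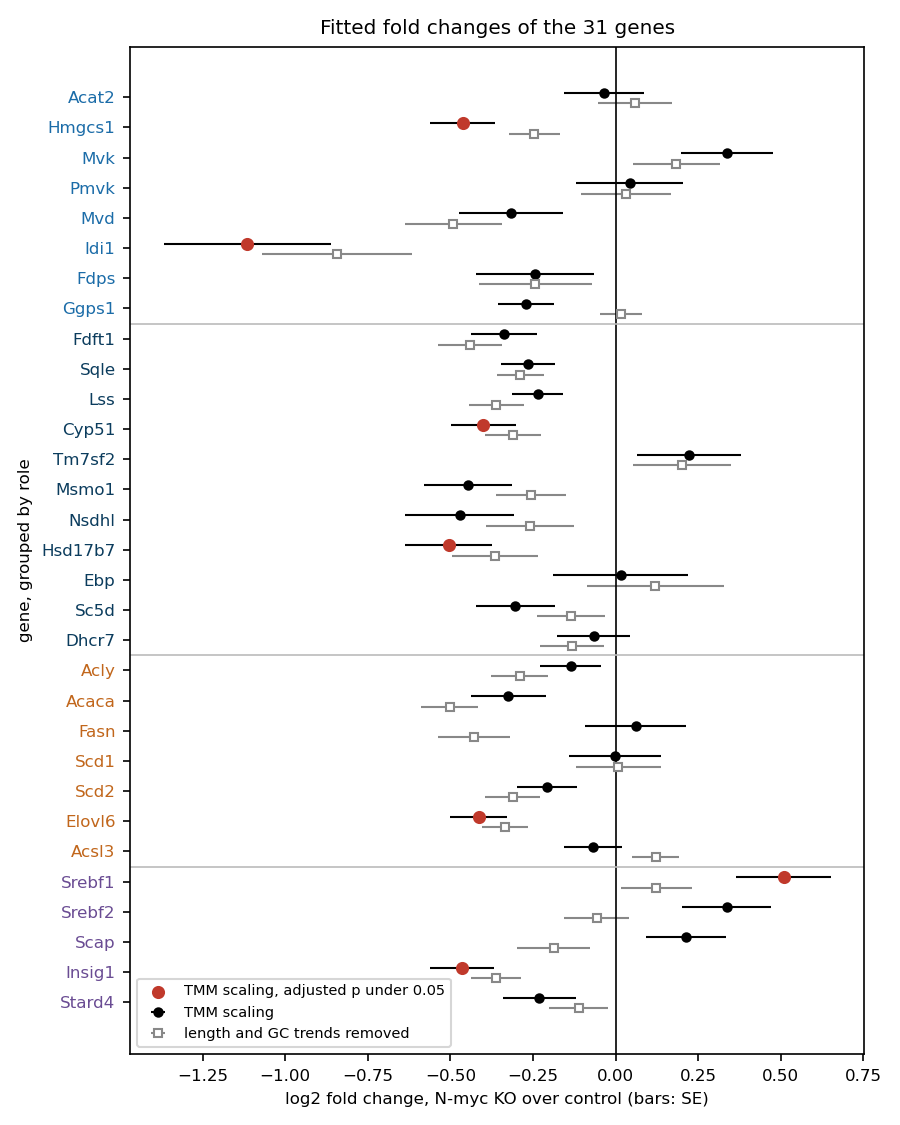
Fitted log2 fold change of knockout over control (x, bars are SE) of the 31 genes grouped by role (y): circles for the fit with TMM scaling, red where adjusted p was under 0.05 and black otherwise, and open squares for the corrected fit (length and GC trends removed). Most sterol enzymes lie left of 0 in both fits. Fasn, Srebf2 and Scap lie right of 0 in the first and left of 0 in the second. Ggps1, Acsl3, Acat2 and, barely, Scd1 cross 0 the other way.

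Of 14 further genes of sterol synthesis and its control, 1 fell (7.14%, against 8.51% of all tested genes) and 0 rose, with a median log2 fold change of 0.06. By an unadjusted edgeR p under 0.05, 2 were lower and 2 higher (2122 and 2189 of all 12035 tested genes). DESeq2 called 2 lower and 1 higher, and limma-voom 1 and 0. The gene that fell was Mbtps2, the site-2 protease that releases SREBP factors (34.1 and 40.4 CPM in knockout lenses against 46.8, 49.3 and 53 CPM in control lenses; log2 -0.41, SE 0.11, edgeR adjusted p = 0.041). In the corrected fit Mbtps2 did not pass (log2 -0.14, adjusted p = 0.278). Of the 14 genes 0 fell and 1 rose in that fit, where 6.15% of all tested genes were called lower and 3.79% higher. The gene that rose was Lbr (log2 0.31, adjusted p = 0.0363).

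Of 24 genes tested for sterol uptake, efflux and storage, 4 rose (16.7%, against 7.98% of all tested genes) and 1 fell (4.17%, against 8.51%). The median log2 fold change was 0.15, and 0.061 without knockout replicate 1 and 0.093 in the corrected fit. Cyp46a1, a cholesterol 24-hydroxylase known from neurons, was at 6.23 and 6.46 CPM in knockout lenses against 3.21, 2.96 and 1.82 CPM in control lenses (log2 1.25, SE 0.28, edgeR adjusted p = 0.029). Lrp1, a lipoprotein receptor, was at 1412.5 and 1199.9 CPM against 910, 761 and 731 CPM (1.63-fold higher, edgeR adjusted p = 0.0157). Apoe, a lipid carrier, was at 21.8 and 18.4 CPM against 11.5, 11.5 and 14 CPM (1.62-fold higher, edgeR adjusted p = 0.0275). Every knockout value of these 3 genes, named because they passed, was above every control value, which held for 25.5% of all tested genes. In the corrected fit 3 of the 24 rose and 0 fell, where 3.79% of all tested genes were called higher and 6.15% lower. Cyp46a1 passed in it (log2 1.05, adjusted p = 0.0481), and Lrp1 and Apoe did not (log2 0.13 and 0.57). The retina markers were higher in the same libraries, as given above. With control replicate 2 or control replicate 3 left out, 0 of these genes passed, in fits that called few genes of the whole table, as given above. Of 25 further fatty acid genes, 2 rose (8%) and 2 fell (8%), close to the shares of 7.98% and 8.51% over all tested genes. The desaturase Fads3 rose 1.48-fold (39.2 and 35.7 CPM against 23.9, 26.2 and 25.7 CPM, edgeR adjusted p = 0.0161). Hsd17b12, of the elongation cycle, fell 1.36-fold and Lpin1, a phosphatase of lipid synthesis, 1.24-fold (edgeR adjusted p = 0.0312 and 0.0428). In the corrected fit Fads3 and Lpin1 passed (log2 0.42 and -0.44, adjusted p = 0.0333 and 0.0141). Hsd17b12 did not pass in it (log2 -0.19, adjusted p = 0.176). The difference between the sterol synthesis and sterol uptake lists was not tested.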

How the data were processed

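RNA of embryonic day 14 mouse lenses was measured in 5 libraries. The deposited values are raw counts per gene symbol in 1 table, a unit checked on its whole numbers and differing totals. The submitters' processing notes name HTSeq 0.6.1, TopHat2 2.0.13, Trim Galore 0.3.7, Cufflinks 2.2.1 and DESeq2, with the build mm10, and give their roles in no way. No source used here gives the annotation or strand setting, so reads of overlapping or antisense genes cannot be told apart. Groups and replicate numbers came from the sample titles.

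Counts were fitted in R 4.3.3 with edgeR 4.0.16: filterByExpr (minimum count 10, which removed 335 symbols), TMM scaling, estimateDisp, glmQLFit and glmQLFTest without covariates, on all 5 libraries and all 12035 symbols kept. P-values were adjusted over all of them (Benjamini-Hochberg, threshold 0.05). The fit was tested on simulated data. CPM use TMM-scaled totals. The SE is the log2 fold change over the square root of F. Positions, and the length and GC content of the longest transcript, were taken from GENCODE vM21 (GRCm38), with length and GC content known for 98.1% of tested genes. An alternative fit took a loess trend of each library on both (span 0.5), centred to keep the TMM scaling, as an offset, and is called the corrected fit. The other alternatives were RLE size factors, library totals, DESeq2 1.42.0, limma-voom (limma 3.58.1), no filter, a minimum count of 50, the replicate number as a block, and leaving out each library.

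The 31 genes and all lists were chosen with earlier results of these data known. Values per library are printed for members that passed, for 2 members of a role where fewer passed, for the 3 highest per kilobase, and for others that stood near the threshold, picked after their values were seen. From the other lists up to 3 genes that passed are named. Pairs of libraries in a group differed by a chi-square over degrees of freedom of 9.981 to 23.388, so each was kept as a separate sample. The p-values describe the spread among pools, which may be technical, and depth limits low genes such as Idi1.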

Additional observations from a re-analysis of the deposited data

How the results depend on the processing

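All 7 genes that passed kept their direction in the 14 alternatives. With RLE size factors, or with no filter on low counts, the same 6 genes fell and Srebf1 rose. DESeq2 called 10 of the 31 lower, 7 of them sterol and 2 fatty acid enzymes. With limma-voom, and when length and GC trends were removed, Srebf1 was lost and 0 of the 31 rose. In the second of these fits 3 fatty acid genes fell, Fasn among them with a log2 fold change of -0.43 in place of 0.06, and the medians were -0.31 for fatty acid enzymes and -0.11 for the SREBP control genes. That fit called 456 genes of the whole table higher.

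The replicate numbers of the titles are shared by 2 pairs, too few to show that they pair the libraries. Same-numbered libraries had deviations correlated at -0.0934 and 0.0073. With the replicate block 473 genes of the table were higher and 522 lower, 5 of the 31 fell, 0 rose, and 0 fatty acid genes fell. The length and GC trends removed together with the replicate block gave 113 higher and 164 lower genes and called 0 of the 31, with medians of -0.33 for fatty acid enzymes and -0.12 for SREBP control genes.

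Scaling by library totals gave 1511 higher and 637 lower genes (960 and 1024 with TMM), and medians of -0.15 for all 31, -0.19 for sterol and -0.052 for fatty acid enzymes.

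Leaving out 1 library at a time, where a lone knockout library is assumed to vary like the controls, gave 21 to 1426 higher and 17 to 1291 lower genes in the table. Of the 31, 0 to 2 were higher and 0 to 7 lower. Sterol enzymes were lower in 0 to 5 cases, fatty acid enzymes in 0 to 1, and SREBP control genes were higher in 0 to 2 and lower in 0 to 1. The medians ran from -0.26 to -0.19 for all 31, from -0.35 to -0.20 for sterol enzymes, from -0.22 to -0.083 for fatty acid enzymes and from 0.13 to 0.33 for SREBP control genes. The cause of these shifts was not tested.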

Other observations

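Genes that use the products of these pathways are given as values. Of 20 fatty acid oxidation genes tested, 2 fell (10%) and 0 rose (edgeR), where 8.51% of all tested genes were called lower and 7.98% higher. At an unadjusted p under 0.05, 4 were lower and 2 higher (2122 and 2189 of all 12035 tested genes). DESeq2 and limma-voom each called 2 of the 20 lower and 0 higher. Cpt2, the inner carnitine palmitoyltransferase of mitochondria, was at 45.9 and 49.2 CPM in knockout lenses against 69.3, 70.4 and 70.1 CPM in control lenses. It fell 1.47-fold (log2 -0.56, SE 0.081, edgeR adjusted p = 0.0113) and passed in 12 of 14 alternatives, with adjusted p from 1.64e-05 to 0.0611. Eci1, an isomerase for unsaturated fatty acids, was at 15.7 and 16.2 CPM against 23.7, 27.4 and 24.3 CPM, 1.57-fold lower (edgeR adjusted p = 0.0194, 0.00215 to 0.0898 over its alternatives). Both also fell when length and GC trends were removed.

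Genes for protein prenylation, dolichol and ubiquinone draw on the isoprenoids made by Fdps and Ggps1. Of 19 such genes, 3 fell (15.8%, against the same 8.51%) and 0 rose (edgeR). When length and GC trends were removed 1 fell, where 6.15% of all tested genes were called lower. By an unadjusted p under 0.05, 4 were lower and 0 higher (2122 and 2189 of all 12035 tested genes). DESeq2 called 3 of the 19 lower and limma-voom 2, with 0 higher. Nus1, a subunit of the enzyme that makes dolichol, was at 35.1 and 37.4 CPM against 50.7, 48.3 and 56.8 CPM (1.43-fold lower, edgeR adjusted p = 0.0208). The prenyl protein protease Zmpste24 and the Rab escort protein gene Chm fell 1.34-fold each (edgeR adjusted p = 0.0341 and 0.0494), and of the 3 only Nus1 was called in that corrected fit. With control replicate 2 left out, edgeR called 0 genes of both lists, where 21 of all tested genes rose and 17 fell. When control replicate 3 was dropped it called 1 oxidation gene lower, where 105 of all tested genes fell. Leaving out knockout replicate 1 gave median log2 fold changes of -0.099 for the oxidation list and -0.091 for the prenylation list.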
